A study of Mus musculus with 21 samples.

Results

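The genes described here are 6 of the 24498 in the counts table: the neurotrophins Bdnf and Ntf3, the Trk receptors Ntrk2 (TrkB) and Ntrk3 (TrkC), the shared low-affinity receptor Ngfr (p75NTR), and Vgf, a secreted granin-like peptide precursor. They were taken by their symbols and followed across mouse hippocampus after ethanol, by region and vector arm. Male mice of 8 weeks received ethanol intraperitoneally at 2 g per kg, as a 20% ethanol solution in saline. After ethanol, the libraries with over 1000000 gene reads were 4 of dorsal hippocampus with ACSS2 knockdown, 3 of dorsal control hippocampus, 3 of ventral hippocampus with ACSS2 knockdown, 4 of ventral control hippocampus and 1 of total hippocampus with ACSS2 knockdown. Their depth was 2819837 to 13240179 gene reads. The knockdown arm received an AAV2/9 vector with a U6-driven short hairpin RNA against Acss2 and a CMV-driven EGFP, placed by stereotaxic surgery in the dorsal hippocampus per the treatment protocol, while the wording of the series design leaves a systemic route possible. The U6 promoter is active in most cell types, no vector is described for the controls, and it is not stated whether each library is its own animal, so the p-values cover library-to-library spread, which may be technical. Acss2, which makes acetyl-CoA from acetate, had 44.2, 40.8, 18.0 and 19.2 CPM (TMM-scaled reads per 1000000 gene reads) in dorsal knockdown and 52.9, 58.6 and 52.7 CPM in dorsal control libraries. It had 28.8, 63.5 and 36.6 CPM in the libraries labelled ventral knockdown and 50.2, 54.1, 47.4 and 48.0 CPM in ventral controls. The library labelled ventral knockdown 3 was thus above every control, and the one labelled total knockdown, at 58.0 CPM, above all controls but 1. Neither showed a loss of the target gene. The ventral knockdown libraries at 28.8 and 36.6 CPM lay below every ventral control. As the route of the vector is not settled, these levels cannot show whether a label is wrong. Whether the vector reached the tissue of each library was not tested. The Acss2 log2 fold change was -0.84 ± 0.32 (SE) in dorsal and -0.21 ± 0.32 in ventral tissue, with edgeR adjusted p-values of 0.964 and 0.9999.

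Neurotrophins are small secreted growth factors that are made as precursors, cut by proprotein convertases or extracellular proteases, and bound as dimers by receptor tyrosine kinases. TrkB answers mainly to BDNF and neurotrophin-4 and TrkC to neurotrophin-3, whereas p75NTR binds all of them and, with sortilin, their uncut precursors. In the hippocampus BDNF is made mainly by excitatory neurons, is induced by synaptic activity and is needed for lasting synaptic strengthening. VGF is stored in dense-core vesicles and its gene is induced by BDNF and activity in neurons.

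All 6 genes passed the low-count filter. Of the 6, 0 were called in any of the 5 comparisons at an edgeR adjusted p under 0.05, where 0.0% of the 14578 tested genes were called in each comparison. Unadjusted p-values were under 0.05 for 667 genes in the dorsal and 593 in the ventral knockdown comparison, for 317 between regions in the knockdown arm, for 813 between regions in the control arm and for 672 in the difference of knockdown effects. DESeq2 called 11, 35, 0, 13 and 9 genes in the same order, and 0 of the 6 were among them. In a comparison of ranges alone, 0 of the 6 had all libraries of one group above or below all of the other, in any comparison. In the dorsal knockdown comparison 3.77% of tested genes lay wholly above control and 3.25% wholly below. In the ventral one these shares were 1.05% and 1.63%. For dorsal against ventral tissue they were 1.03% and 0.713% in the knockdown arm and 5.54% and 3.73% in the control arm.

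Per kilobase of merged exon, a scale on which genes can be compared, Vgf had the highest median level over the 15 libraries, 83.0 CPM per kb, with a range of 22.6 to 336. Ntrk2 followed at 36.6 (18.5 to 41.0) and Bdnf at 8.27 (4.20 to 18.3). Ntrk3 had a median of 3.69 CPM per kb (2.12 to 5.61), Ntf3 of 1.46 (0.0829 to 4.80) and Ngfr of 0.902 (0.296 to 2.16). Only Ntrk2 and Bdnf were neighbours in this order whose ranges did not overlap. The merged exons of Ntrk2 and Ntrk3 span 19.29 and 30.17 kb and include every annotated form, so their level per kb would be higher on a shorter transcript. Gene counts do not separate the full-length kinase forms of either receptor from the truncated ones.

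**Figure D1:**
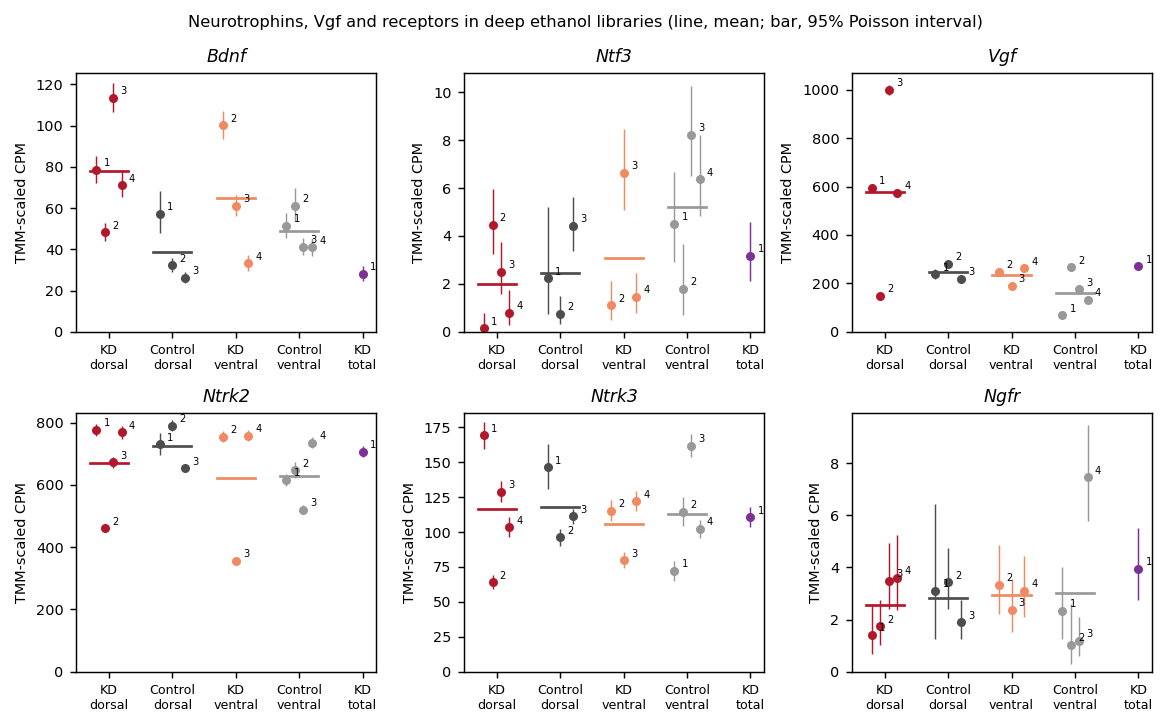
TMM-scaled CPM (y axis, linear, starting at 0) of the 6 genes in the 15 deep ethanol libraries, by group (x axis; KD, ACSS2 knockdown; points, libraries with their replicate number; bars, 95% Poisson intervals; lines, group means). For Vgf, 3 dorsal knockdown libraries lie at 574 to 999 CPM and the other at 147 CPM, against 219 to 280 CPM in dorsal controls, while the Ntrk2 and Ntrk3 values of the 4 dorsal and ventral groups overlap.

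Bdnf (ENSMUSG00000048482.14, chromosome 2, 109674700 to 109727007, plus strand, mm10) encodes the main TrkB ligand of the forebrain. Its annotation has several alternative first exons, each with its own promoter, and the gene count sums over all of them. RefSeq lists 7 start-site windows for Bdnf, 2 for Ntf3 and 1 each for Ntrk2 and Ngfr on GRCm38.p6, the assembly that mm10 also names. These windows were searched on both strands over the 250 bases upstream of each start for the cAMP response element (CRE, TGACGTCA), bound by CREB, for its first 5 letters alone (TGACG), and for the AP-1 element TGANTCA, bound by Fos and Jun. Ntrk3 and Vgf had no window in this set and were not searched. The full CRE was in none of the 11 windows, and it is in 1.55% of 32817 such mouse windows. The 5-letter CRE core is in 17.7% of them and was in 1 of these 11. The AP-1 element is in 6.75% and was also in 1. Both matches were in Bdnf, and the sequences are shown because they place these letters in 2 different promoters of a gene whose count adds all promoters together. They run 5′ to 3′ on the plus strand of GRCm38.p6, credited to RefSeq, with the matched letters in capitals. In the first the AP-1 match TGAATCA starts at -152 from the annotated start, and in the second the CRE core is read on the minus strand, so that its complement CGTCA starts at -35.
Bdnf window 2, chr2:109676782-109677031: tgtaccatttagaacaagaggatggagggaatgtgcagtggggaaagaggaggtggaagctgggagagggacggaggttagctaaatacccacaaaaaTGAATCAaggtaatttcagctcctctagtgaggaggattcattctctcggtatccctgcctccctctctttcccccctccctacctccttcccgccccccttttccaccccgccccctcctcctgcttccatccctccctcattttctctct
Bdnf window 3, chr2:109692186-109692435: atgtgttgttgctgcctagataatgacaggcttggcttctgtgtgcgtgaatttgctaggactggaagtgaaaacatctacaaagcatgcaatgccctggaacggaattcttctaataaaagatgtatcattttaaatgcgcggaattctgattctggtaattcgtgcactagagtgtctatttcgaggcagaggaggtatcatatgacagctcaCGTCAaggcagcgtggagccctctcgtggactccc
A match is a string of letters, and the counts hold no measure of which promoter was used.

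Bdnf had 78.6, 48.2, 113.5 and 71.1 CPM in dorsal knockdown libraries, against 57.4, 32.3 and 26.1 CPM in dorsal controls. Of the dorsal knockdown libraries, 3 lay above every control, and knockdown 2 lay between control 1 and control 2. The means were 77.8 ± 27.1 and 38.6 ± 16.6 CPM (SD), a log2 fold change of 1.04 ± 0.38 (SE) with a 95% interval of 0.22 to 1.86. In edgeR's quasi-likelihood test the unadjusted p was 0.0165 and the adjusted p 0.955. In bulk tissue, a change in RNA per cell and a change in the number of cells of a type cannot be told apart. In ventral hippocampus Bdnf had 100.2, 61.1 and 33.2 CPM in knockdown libraries and 51.4, 61.3, 41.3 and 41.0 CPM in controls. The knockdown libraries lay both above and below all controls, with a log2 fold change of 0.41 (95% interval -0.37 to 1.20). The dorsal effect exceeded the ventral one by 0.62 ± 0.53 (SE) on the log2 scale, with an adjusted p of 0.998 in edgeR.

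Between regions Bdnf differed by less than its spread in both arms. The dorsal minus ventral log2 fold change was 0.26 (95% interval -0.53 to 1.06) in knockdown and -0.36 (-1.17 to 0.45) in control libraries. The single library labelled total hippocampus with knockdown had 28.0 CPM, lower than all but 1 of the other 14. Within groups the log2 level of Bdnf had an SD of 0.54. It was larger than that of 67.1% of tested genes and of 83.6% of the 2436 genes nearest to it in level.

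Markers of reactive glia differed beside Bdnf in the dorsal comparison. All 12 reactive astrocyte genes had a positive log2 fold change (median 2.50, against 0.03 over all tested genes), 8 with an unadjusted p under 0.05 in edgeR and 0 called. Their summed level was 927 to 5059 CPM in dorsal knockdown and 414 to 660 CPM in dorsal control libraries. All 15 microglial genes were also on the positive side (median 1.16, 10 with an unadjusted p under 0.05, 0 called), with sums of 584 to 1581 CPM in dorsal knockdown and 396 to 546 CPM in dorsal controls. Of 13 homeostatic astrocyte genes, 12 were on the negative side, with a median of -0.16. None of these lists had a member at 0 in all 15 libraries. The library with the highest Bdnf level in each of the 4 dorsal and ventral groups also had that group's highest reactive astrocyte score. These scores were 3.30 in dorsal knockdown 3, -0.80 in dorsal control 1, 1.54 in ventral knockdown 2 and 1.63 in ventral control 2. That score is the mean over the list of log2 CPM minus each gene's mean over libraries. The part of reactive glia in the Bdnf level was not tested.

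Ntf3 (ENSMUSG00000049107.13, chromosome 6, 126101412 to 126166910, minus strand) encodes neurotrophin-3, the TrkC ligand, found in adult hippocampus mainly in dentate granule cells. It had 1 to 77 reads per library. Dorsal knockdown libraries had 0.142, 4.45, 2.51 and 0.802 CPM and dorsal controls 2.22, 0.761 and 4.41 CPM. The lowest value rested on 1 read, and the groups overlapped over most of their range. Ventral knockdown libraries had 1.11, 6.63 and 1.45 CPM and ventral controls 4.51, 1.79, 8.22 and 6.36 CPM. The knockdown log2 fold change was -0.31 (95% interval -2.19 to 1.56) in dorsal and -0.79 (-2.60 to 1.03) in ventral tissue, intervals that allow a 2-fold change in either direction.

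Dorsal minus ventral, Ntf3 had a log2 fold change of -0.60 ± 0.85 (SE) in knockdown and -1.07 ± 0.88 in control libraries (edgeR adjusted p of 0.9996 and 0.748). Of the dentate granule markers, 10 of 11 had a negative dorsal minus ventral value in each arm, with medians of -0.67 in knockdown and -0.96 in control libraries, and 0 were called. Their summed level was 340 to 673.5 CPM in dorsal and 500 to 958 CPM in ventral knockdown libraries, and 454 to 789 CPM in dorsal and 284 to 1771 CPM in ventral control libraries. The ventral control library with the most Ntf3, replicate 3, had the highest dentate granule score of all, 2.22. In the other groups the libraries with the most Ntf3 scored 0.61 (labelled ventral knockdown 3), -0.03 (dorsal control 3) and -0.69 (dorsal knockdown 2). Of these, only the first was the highest score of its group. Whether granule cell content accounts for the Ntf3 level was not tested. Ntf3 had a within-group SD of 1.37 on the log2 scale, larger than that of 97.7% of tested genes and of 94.7% of the 1024 genes nearest to it in level.

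Vgf (ENSMUSG00000037428.14, chromosome 5, 137026392 to 137033351, plus strand) was read deeply, with 373 to 9169 reads per library. It had 593.6, 147.5, 999.0 and 573.8 CPM in dorsal knockdown libraries, against 237.5, 280.4 and 219.3 CPM in dorsal controls. Of the knockdown libraries, 3 exceeded every dorsal control by more than 2-fold and knockdown 2 lay below all of them. The means were 578 ± 348 and 246 ± 31.4 CPM (SD), a log2 fold change of 1.23 ± 0.51 (SE, 95% interval 0.15 to 2.32), with an unadjusted p of 0.0288 and an adjusted p of 0.997 in edgeR. In ventral hippocampus the knockdown libraries had 246.9, 190.5 and 261.9 CPM and the controls 67.3, 265.4, 174.7 and 132.3 CPM. There the log2 fold change was 0.54 (-0.50 to 1.59). The dorsal minus ventral difference of these effects was 0.69 ± 0.70 (SE).

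Between regions, Vgf had a dorsal minus ventral log2 fold change of 1.31 ± 0.51 (SE, unadjusted p 0.0217, adjusted p 0.9996 in edgeR) in the knockdown arm and 0.62 ± 0.49 (adjusted p 0.743) in the control arm. Without the library labelled ventral knockdown 3 the value in the knockdown arm was 1.18 ± 0.60, with an unadjusted p of 0.0720. Its within-group SD of 0.80 on the log2 scale was larger than that of 87.0% of all tested genes, and of 97.4% of the 648 genes nearest to it in level.

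Dorsal knockdown 2 belongs to 3 libraries that stood apart. With the library labelled ventral knockdown 3 and ventral control 1 it had the smallest shares of reads from the ribosomal RNA precursor Rn45s, 0.625% to 1.17% of gene reads, where the other 12 had 3.49% to 20.7%. These 3 also had the 3 lowest Ntrk3 levels, 63.9 CPM in dorsal knockdown 2, 79.7 in the library labelled ventral knockdown 3 and 72.2 in ventral control 1. Of these 3 only knockdown 2 is dorsal, and it is the dorsal library with the lowest Vgf level. Without the 3, an exclusion chosen after seeing the data, the dorsal knockdown log2 fold change of Vgf was 1.55 ± 0.28 (SE). Its unadjusted p was then 0.000155 and its adjusted p 0.225, where the adjusted p over all 14 alternatives ran from 0.225 to 1 in edgeR or DESeq2. Bdnf without them had a log2 fold change of 1.22 ± 0.41 and an adjusted p of 0.507, within a range of 0.501 to 0.9999 over its alternatives. The Vgf effect in dorsal tissue then exceeded the ventral one by 1.15 ± 0.42 (unadjusted p 0.0188, adjusted p 0.443), against 0.69 with all libraries.

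**Figure D2:**
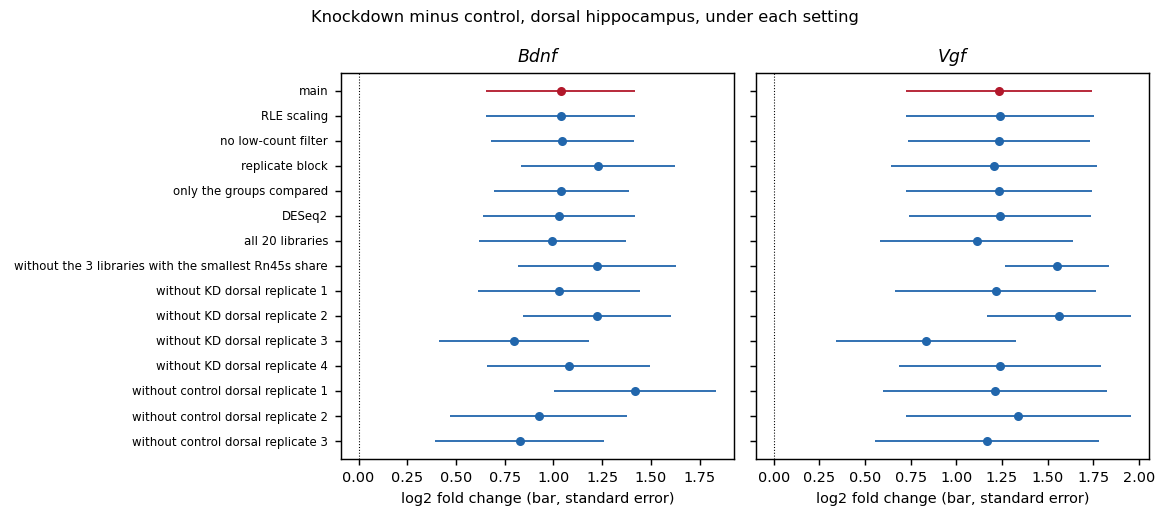
Log2 fold change (x axis, bar, standard error) of Bdnf and Vgf in dorsal hippocampus, knockdown minus control, under the main model (red) and each of 14 alternatives (blue, y axis). Every point is above 0, from 0.80 to 1.42 for Bdnf and from 0.83 to 1.56 for Vgf.

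Ntrk2 (ENSMUSG00000055254.15, chromosome 13, 58806569 to 59133970, plus strand) encodes TrkB, whose full-length form signals in neurons and whose truncated form is abundant in astrocytes. It had 776, 460, 673 and 769 CPM in dorsal knockdown libraries and 731, 790 and 653 CPM in dorsal controls. In ventral hippocampus the knockdown libraries had 755, 356 and 758 CPM and the controls 616, 647, 521 and 736 CPM. The knockdown log2 fold change was -0.11 (95% interval -0.70 to 0.47) in dorsal and -0.02 (-0.60 to 0.57) in ventral tissue. Dorsal minus ventral it was 0.10 (-0.48 to 0.69) in knockdown and 0.20 (-0.38 to 0.78) in control libraries. No interval reached a 2-fold change. The lowest Ntrk2 levels, in the library labelled ventral knockdown 3 and dorsal knockdown 2, stood beside astrocyte scores of -0.35 and -0.30, which with ventral control 1 at -0.32 were the 3 lowest. Summed astrocyte markers ranged from 3536 to 5870 CPM in dorsal knockdown and 4587 to 6684 CPM in dorsal control libraries, and from 3417 to 7832 CPM in ventral knockdown and 3626 to 5544 CPM in ventral control libraries. The part of astrocyte content was not tested.

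Ntrk3 (ENSMUSG00000059146.12, chromosome 7, 78175959 to 78738012, minus strand) encodes TrkC, the neurotrophin-3 receptor. Its levels were 169, 63.9, 129 and 104 CPM in dorsal knockdown and 146, 96.2 and 111 CPM in dorsal control libraries. Ventral knockdown libraries had 115, 79.7 and 122 CPM and ventral controls 72.2, 114, 162 and 102 CPM. The log2 fold change of knockdown was -0.02 (-0.71 to 0.68) in dorsal and -0.09 (-0.78 to 0.60) in ventral tissue. Between regions it was 0.14 (-0.55 to 0.83) in the knockdown arm and 0.06 (-0.63 to 0.75) in the control arm.

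Ngfr (ENSMUSG00000000120.6, chromosome 11, 95568818 to 95587735, minus strand), a death-domain receptor best known in adult brain from the cholinergic neurons of the basal forebrain, whose cell bodies lie outside the hippocampus, had 4 to 68 reads per library. Dorsal knockdown libraries had 1.42, 1.74, 3.49 and 3.61 CPM and dorsal controls 3.11, 3.42 and 1.89 CPM. Ventral knockdown libraries had 3.33, 2.38 and 3.11 CPM and ventral controls 2.35, 1.02, 1.18 and 7.46 CPM. The knockdown log2 fold change was -0.11 (-1.42 to 1.21) in dorsal and -0.07 (-1.34 to 1.20) in ventral tissue. Ventral control 4, the highest library, also had the highest score of choroid plexus markers, 5.72. Ventral control 3 had the next highest score, 1.40, with an Ngfr level of 1.18 CPM, among the 2 lowest. All 12 choroid plexus markers had a negative log2 fold change in the ventral comparison (median -5.38, 11 with an unadjusted p under 0.05, 0 called), with sums of 67.9 to 78.5 CPM in ventral knockdown and 48.2 to 15886 CPM in ventral control libraries. The score of septal cholinergic markers rests on Zic1 and Isl1 alone, the 2 tested of 7. It was also highest in ventral control 4, at 3.65, but ventral controls 2 and 3, which had the 2 lowest Ngfr levels of all, had scores of 3.36 and 3.44. Both genes had a negative log2 fold change in the ventral comparison and an unadjusted p under 0.05 in edgeR (median -5.36, 0 called). The sums of all 7 septal markers were 4.04 to 22.5 CPM in ventral knockdown and 6.32 to 144 CPM in ventral control libraries, and 0 of the 7 were at 0 in all 15 libraries. The part of choroid plexus or of septal neurons in the Ngfr level was not tested. Without ventral control 4 the ventral log2 fold change of Ngfr was 0.95, with an unadjusted p of 0.0704 in edgeR.

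The library labelled ventral knockdown 3 had more Acss2 than every control. Without it the ventral knockdown log2 fold change was 0.46 for Bdnf, -2.03 for Ntf3 and 0.67 for Vgf. For the receptors it was then 0.27 for Ntrk2, 0.08 for Ntrk3 and 0.06 for Ngfr, each on the other side of 0 from its value with all libraries. The edgeR adjusted p-values of the 6 genes were 0.749 to 0.991.

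**Figure D3:**
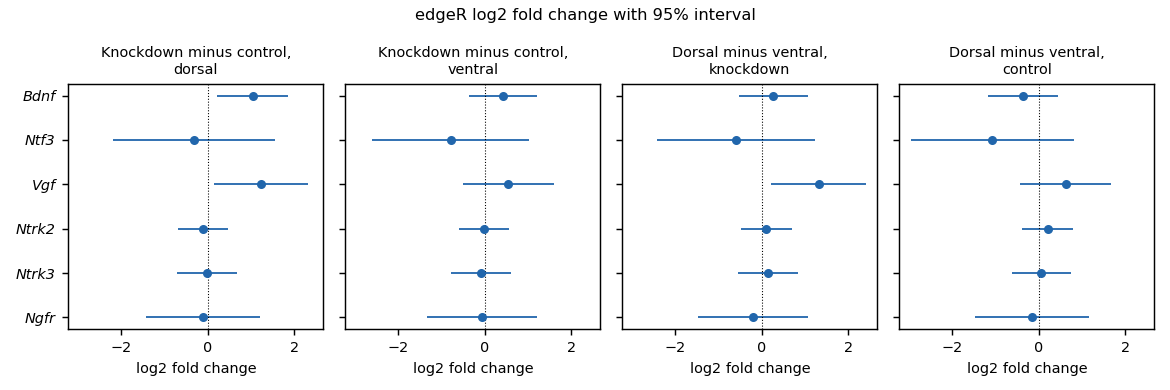
Log2 fold change (x axis) of the 6 genes (y axis) in edgeR with its 95% interval, for knockdown minus control in dorsal and ventral hippocampus and for dorsal minus ventral in each arm. The intervals of Bdnf (0.22 to 1.86) and Vgf (0.15 to 2.32) in the dorsal knockdown panel and of Vgf in the knockdown arm between regions lie above 0, and none of these passed adjustment over 14578 genes.

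Of the other ligands and receptors, 5 of 7 passed the filter and 0 were called in any comparison. Sort1 (sortilin), the precursor co-receptor of p75NTR, averaged 556 ± 184 CPM in dorsal knockdown and 580 ± 106 CPM in dorsal control libraries, and 504 ± 32.2 CPM in ventral knockdown and 501 ± 102 CPM in ventral control libraries (SD). The sortilin relatives Sorcs1, Sorcs2 and Sorcs3 had knockdown log2 fold changes of 0.70, 0.21 and 0.48 in dorsal and 0.07, -0.03 and 0.62 in ventral tissue. Among the 5, Sorcs3 had the smallest unadjusted p in both knockdown comparisons (0.175 dorsal, 0.0832 ventral) and both region comparisons. Ntf5, which encodes neurotrophin-4, had 0 to 17 reads per library and was not tested at this depth.

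Genes that cut or guard the precursors showed no common direction. Of 12 tested, 7 were on the positive side of knockdown in each region, with medians of 0.13 in dorsal and 0.08 in ventral tissue and 0 called. The smallest p in ventral tissue was that of the convertase Pcsk2 (log2 fold change 0.57 ± 0.24 SE, edgeR adjusted p 0.9999). Dorsal minus ventral it was the convertase Pcsk1 in the control arm (0.85 ± 0.46).

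Of 46 genes of Trk adaptors and downstream kinases, 15 were on the positive side of knockdown in dorsal and 19 in ventral tissue, with medians of -0.09 and -0.06, where the medians over all genes were 0.03 and -0.01, and 0 were called. Rps6ka2, a ribosomal S6 kinase of the ERK pathway, had the smallest p in dorsal tissue (-0.85 ± 0.37, edgeR adjusted p 0.9995) and Mapk7 (ERK5) in ventral tissue (-0.47 ± 0.27, adjusted p 0.9999). Between regions it was Mapk7 in the knockdown arm (0.44 ± 0.27) and Akt1, a kinase downstream of PI3K, in the control arm (0.45 ± 0.18). Of 15 p75NTR partners and effectors, 10 were on the positive side in dorsal and 7 in ventral tissue, with medians of 0.07 and -0.02 and 0 called. The small GTPase Rhoa led by p in dorsal tissue (0.30 ± 0.22) and the adaptor Traf6 in ventral tissue (-0.38 ± 0.20). Lingo1, a p75NTR co-receptor, led between regions in both arms (0.73 ± 0.35 in knockdown, 0.87 ± 0.35 in control libraries).

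Activity-induced genes, the set to which Bdnf and Vgf belong by textbook knowledge though neither was counted in it, had 28 of 32 members on the positive side of dorsal knockdown. Their median log2 fold change was 0.86, with 10 members at an unadjusted p under 0.05 and 0 called in edgeR. The dorsal knockdown libraries were split. Replicates 1 and 4 scored 1.52 and 1.79, above the dorsal controls at 0.16, 0.20 and -0.23. Replicate 3, at 0.16, lay within the range of these controls, and replicate 2, at -1.10, had the lowest score of the 15 libraries. In ventral tissue 14 of 32 were positive, with a median of -0.11. The G protein regulator Rgs2 had the smallest p in dorsal tissue (1.56 ± 0.33 SE, adjusted p 0.955) and the nuclear receptor Nr4a2 in ventral tissue (1.35 ± 0.52, adjusted p 0.9999). Dorsal minus ventral, 30 of 32 were positive in the knockdown arm (median 1.36, 20 with an unadjusted p under 0.05, 0 called) and 24 of 32 in the control arm (median 0.32). Summed levels were 1139 to 6390 CPM in dorsal knockdown and 1577 to 2211 CPM in dorsal control libraries, and 1367 to 1624 CPM in ventral knockdown and 1294 to 1767 CPM in ventral control libraries. Rgs2 had the smallest p in the difference of knockdown effects as well (1.95 ± 0.45, adjusted p 0.998), where Pcsk2 (-0.63 ± 0.34), Akt1 (-0.50 ± 0.26) and Mapk10 (-0.56 ± 0.32) led the other lists.

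**Figure D4:**
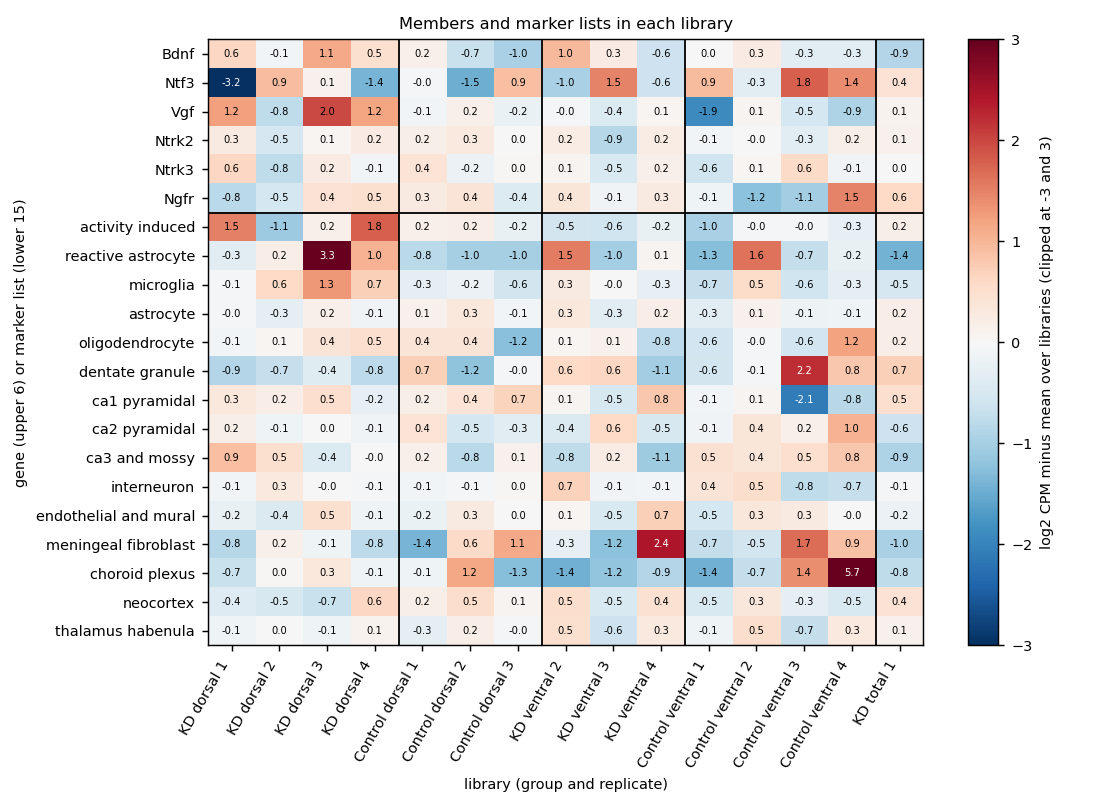
Log2 CPM minus the mean over 15 libraries for the 6 genes (upper rows) and the mean of the same quantity over each of 15 marker lists (lower rows), by library (columns; KD, ACSS2 knockdown; colours clipped at -3 and 3, values printed). Dorsal knockdown 3 has the highest reactive astrocyte score, 3.30, dorsal knockdown 4 and 1 the highest activity-induced scores, 1.79 and 1.52, and ventral control 4 a choroid plexus score of 5.72.

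Across the 15 libraries the 6 genes and the activity-induced score gave 21 pairwise relations, each tested by 100000 permutations and adjusted by Benjamini-Hochberg over the 21. All libraries enter, so group differences and the shared depth and composition of a library enter too. Vgf followed the activity-induced score, with Pearson's r of 0.73 (p 0.00302, adjusted p 0.0513) and Spearman's rho of 0.82 (p 0.00038, adjusted p 0.00399). Without the 2 libraries farthest from the median of Vgf, dorsal knockdown 3 and ventral control 1, r was 0.89. Within groups it was 0.67. Dorsal knockdown 3 had the most Vgf of all libraries, 999 CPM, with an activity-induced score of only 0.16. Without the 3 libraries of small Rn45s share, r was 0.63 and rho 0.73. For Bdnf and the score no relation passed adjustment, with r of 0.22 (p 0.432, adjusted p 0.648) and rho of 0.10 (p 0.713, adjusted p 0.788). Bdnf and Vgf had r of 0.47 (p 0.0781, adjusted p 0.182) and rho of 0.36 (p 0.189, adjusted p 0.396).

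Ntf3 ran opposite to several of the others. Against Ntrk2 it had r of -0.64 (p 0.0122, adjusted p 0.0801) and rho of -0.83 (p 0.00017, adjusted p 0.00357), with r of -0.64 without the 2 libraries farthest in Ntf3 and -0.74 within groups. Against Vgf it had r of -0.62 (p 0.0153, adjusted p 0.0801) and rho of -0.78 (p 0.0013, adjusted p 0.0091), with r of -0.54 without the 2 farthest libraries and -0.44 within groups. Against the activity-induced score it had r of -0.69 (p 0.00489, adjusted p 0.0513) and rho of -0.65 (p 0.00982, adjusted p 0.0412), with r of -0.60 and -0.66 under the same exclusion and within groups. Ntrk2 and the score had r of 0.53 (p 0.0434, adjusted p 0.130) and rho of 0.67 (p 0.00769, adjusted p 0.0404), with r of 0.41 without the 2 libraries farthest in Ntrk2 and 0.54 within groups. None of the 21 relations had an adjusted p under 0.05 by Pearson's r, and these 5 had one by Spearman's rho. Without the 3 libraries of small Rn45s share, rho was -0.80 for Ntf3 and Ntrk2, -0.66 for Ntf3 and Vgf, -0.52 for Ntf3 and the score and 0.41 for Ntrk2 and the score.

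**Figure D5:**
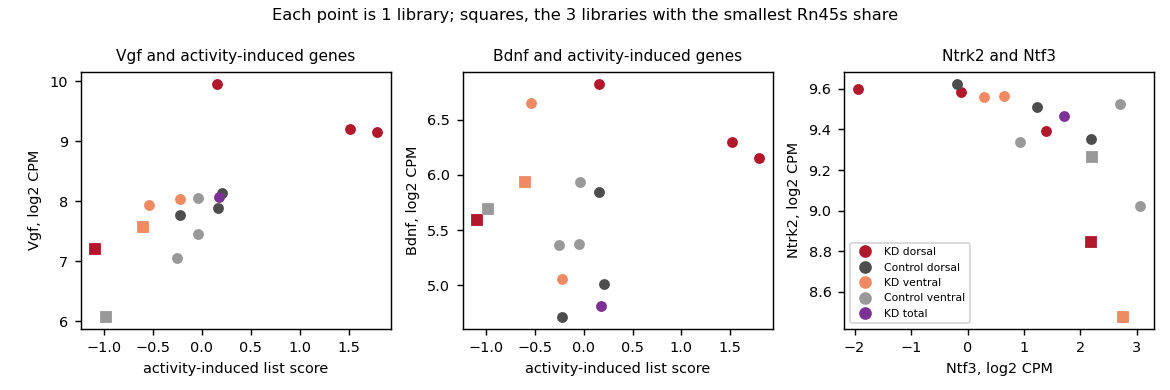
Log2 CPM of Vgf and of Bdnf against the activity-induced list score, and of Ntrk2 against Ntf3, each point 1 of 15 libraries (colour, group; squares, the 3 libraries with the smallest Rn45s share). Spearman's rho is 0.82 for Vgf and the score, 0.10 for Bdnf and the score and -0.83 for Ntrk2 and Ntf3.

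The genes most like each member were ranked by Pearson's r of log2 CPM over the 15 libraries among 11422 tested genes averaging 5 CPM or more, as a description without a test. Bdnf was nearest to Serpina3n (0.897), a reactive astrocyte marker, then to Gpnmb, Slc9a9, the secretogranin Scg2 and Slc14a1 (0.868 to 0.874). Of these, Scg2 is in the activity-induced list. Vgf was nearest to Tvp23a (0.922), then to the collagen Col4a2, the creatine transporter Slc6a8, Ntn3 and Eme2 (0.894 to 0.917). Ntrk2 was nearest to the receptor Egfr (0.948), followed by Sox6, Fam199x, Fat1 and Ptpn4 (0.931 to 0.939). Ntrk3 was nearest to March4 (0.948), followed by Trrap, Plxna4 and Zfp831 (0.940 to 0.943). Ngfr was nearest to Plekhg1 (0.840), then Adssl1, Klf11, Arap2 and Smim1 (0.786 to 0.834). Ntf3 was nearest to the interleukin-1 receptor Il1r1 (0.812), then Bambi, Ttc4, Fam13a and Mcm6 (0.789 to 0.804). The 5 genes nearest to Bdnf and the 5 nearest to Vgf had no gene in common.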

How the data were processed

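RNA of dorsal, ventral or total mouse hippocampus was sequenced in 21 libraries. The table that the authors deposited holds unnormalized read counts for 24498 genes, and its 5 summary lines entered neither totals nor tests. The genome build mm10 and the tools STAR 2.5.2a and HTSeq 0.6.1p1 are named per the submitters' processing notes, and per the labels' protocols the library kit was directional. Which strand option HTSeq ran with is not given in these sources. Annotated antisense genes overlap Bdnf, Ntrk2 and Ntrk3 and have no row of their own in the counts table.

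The 15 ethanol libraries with over 1000000 gene reads were scaled by TMM. The 14 dorsal and ventral ones were tested in edgeR 4.0.16 (R 4.3.3) by quasi-likelihood (1 mean per group, filterByExpr minimum count 10, robust fit, 14578 genes), with Benjamini-Hochberg adjusted p under 0.05 as the threshold. The total hippocampus library entered no test. Another 2 ethanol libraries (5021 and 8744 gene reads) and 4 untreated libraries (4279 to 221847) held too few gene reads and were used only in the alternative with 20 libraries. In the untreated libraries 0.991% to 1.43% of the gene, ambiguous and no-feature reads together fell in genes, against 57.4% to 81.0% in the ethanol libraries, and 3 of them had 9321920 to 15334944 no-feature reads. Standard errors came from the F statistic. Poisson intervals at 95% cover counting error only. Exon lengths came from GENCODE for mm10. Correlations used log2 CPM with a prior count of 1. The fit was tested on simulated data.

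The members and lists were chosen with earlier results of these data known. By rule, the 6 members, Acss2 and the other ligands and receptors were always named, and from each other pathway list the called genes or, with none called, the gene with the smallest p. Some genes that this rule takes are not reported here. Marker lists not described in the text (CA1, CA2, CA3 and mossy cells, interneurons, oligodendrocytes and their precursors, endothelium, meninges, neocortex, thalamus and habenula, hypothalamus) had 0 called genes in every comparison. In that edgeR fit no tested gene was called at all, so this does not show whether these lists differed between groups. The alternatives were DESeq2 1.42.0, RLE scaling, all genes without the filter on low counts, a replicate block, a fit of the compared groups only, a fit of 20 libraries and the omission of each library in turn. The omission of the 3 libraries with the smallest Rn45s share was added after the data had been seen.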

Additional observations from a re-analysis of the deposited data

How the results depend on the processing

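The 6 genes were called under none of the alternatives in any comparison, and 401 of their 456 alternative log2 fold changes kept the sign of the value in the report. Those of Bdnf and Vgf for dorsal knockdown kept their sign in all 14 alternatives each. The other 55 changed sign, and the cause was not tested. Leaving out single libraries gave sign changes in the following log2 fold changes. For knockdown in dorsal tissue they ran from -1.08 to 0.68 for Ntf3, -0.20 to 0.037 for Ntrk2, -0.26 to 0.20 for Ntrk3 and -0.35 to 0.12 for Ngfr. For knockdown in ventral tissue they ran from -0.044 to 0.74 for Bdnf, -0.17 to 0.27 for Ntrk2, -0.26 to 0.13 for Ntrk3 and -0.36 to 0.95 for Ngfr. For dorsal minus ventral controls they ran from -0.12 to 0.29 for Ntrk3 and -0.44 to 0.86 for Ngfr. For dorsal minus ventral knockdown they ran from -0.056 to 0.72 for Bdnf, -1.36 to 0.65 for Ntf3, -0.18 to 0.27 for Ntrk2 and -0.11 to 0.34 for Ntrk3. For the difference of effects they ran from -0.29 to 1.72 for Ntf3, -0.38 to 0.065 for Ntrk2, -0.17 to 0.29 for Ntrk3 and -1.05 to 0.25 for Ngfr. Under the replicate block the log2 fold change was 0.051 for Ntf3 in dorsal knockdown, 0.15 for Ngfr in ventral knockdown, 0.40 for Ngfr between regions in controls and -0.0021 for Ntrk3 in the difference of effects. Without the 3 libraries of small Rn45s share, dorsal knockdown gave 0.027 for Ntrk2, 0.19 for Ntrk3 and 0.050 for Ngfr, ventral knockdown 0.24 for Ntrk2, dorsal minus ventral knockdown -0.021 for Ntrk2, dorsal minus ventral controls -0.10 for Ntrk3 and the difference of effects 0.12 for Ngfr.

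Over all genes, where edgeR called 0 in each of the 5 comparisons, DESeq2 called 11 in dorsal knockdown, 35 in ventral knockdown, 13 between regions in controls and 9 in the difference of effects. The fit over 20 libraries called 1 in ventral knockdown and 1 in the difference. Without the 3 libraries of small Rn45s share the counts were 7 in ventral knockdown, 12 between control regions and 6 in the difference. Leaving out single libraries gave 0 to 8 calls in ventral knockdown and 0 to 6 between control regions, both highest without ventral control 1, and 0 to 2 in the difference, highest without the library labelled ventral knockdown 3. The replicate block gave 0 calls in all 5 comparisons. Same-numbered libraries of different groups had correlations of their deviations of -0.22 to 0.367, and unlike-numbered ones of -0.45 to 0.596. These ranges include pairs from different arms. Dorsal and ventral libraries of the same arm and number had -0.141, -0.078 and 0.367 in knockdown and -0.156, 0.089 and -0.035 in control. Those of the same arm but unlike number had -0.379 to 0.369. Whether a number marks a shared animal is not stated, so these values cannot settle whether dorsal and ventral libraries are paired. Ntf3 rested on 1 to 77 and Ngfr on 4 to 68 reads per library, and the intervals of these 2 genes allow 2-fold changes in the knockdown comparisons.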

Other observations

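The untreated libraries and 2 of the ethanol libraries held too few gene reads for a level of these genes, and no comparison with and without ethanol was made. Of the 4 untreated libraries, dorsal knockdown 1 had 15 Vgf reads, 13 Ntrk2 reads and 2 Bdnf reads among 93311 gene reads, and dorsal control 1 had 7 Vgf reads, 11 Ntrk2 reads and 1 Bdnf read among 115467. Dorsal control 2 had 105 Ntrk2 reads, 24 Ntrk3 reads, 12 Vgf reads, 2 Bdnf reads, 1 Ntf3 read and 0 Ngfr reads among 221847 gene reads, where 3 reads, the limit that a count of 0 allows, correspond to 13.5 reads per 1000000. Untreated dorsal knockdown 2 and the ethanol libraries dorsal knockdown 5 and ventral knockdown 1 had at most 3 reads of any of the 6 genes.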
